A study of Mus musculus with 18 samples.

Results

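Bone morphogenetic proteins (BMPs) and the secreted proteins that hold them back were followed across 14 RNA sequencing libraries of mouse embryonic stem (ES) cells and embryoid bodies (EBs). The 9 genes were taken by name from a list drawn up with earlier results of these data known: the ligands Bmp2, Bmp4, Bmp5, Bmp6 and Bmp7, the antagonists Nog, Grem1 and Chrd, and Bmper, an extracellular modulator. The table of days 8 and 16 and of ES cells lists 54114 gene symbols and all 9 genes, and the day-2 table lists 26157 symbols and 8 of them. Bmp5 is not listed at day 2, in a table whose symbols all have 5 or more counts in sum. Every listed member passed the filter on low counts in each comparison, so 8 were tested at day 2 and 9 elsewhere.

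All cells came from the line Msx1-tdTomato mESCs, in which the fluorescent protein tdTomato reports on Msx1, a homeobox gene of craniofacial mesenchyme. At day 2, EBs of a line with inducible Dlx2 were compared with EBs of a line with inducible GFP, both with 1 µg/ml doxycycline. Cells of days 8 and 16 came from induced EBs of the Dlx2 line and were sorted into Msx1-positive and Msx1-negative fractions, and the libraries labelled ES are given as wild type and untreated. Each of these 7 groups had 2 libraries. The labels name neither the promoter of the transgenes nor whether a line is 1 clone. They also do not say that replicates came from separate cultures, so p-values measure the spread between libraries, which may be technical. Day-2 libraries held 26211608 to 41552818 counts and the others 53797597 to 107770730.

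The induced and sorted genes were checked first. Dlx2 had 2 counts in each GFP library and 4344 and 4720 CPM (the usual depth-scaled count, here with TMM factors) in the Dlx2 libraries, where reads of the transgene and of the endogenous gene cannot be told apart. The libraries labelled ES held Dlx2 at 219 and 222 CPM, well above the GFP EBs. Day-8 Msx1-negative cells had 269 and 272 CPM of Dlx2 and day-8 Msx1-positive cells 1137 and 1270. At day 16 the values were 131 and 146 in Msx1-negative and 288 and 341 in Msx1-positive cells, so the sorted fractions differed in Dlx2 as well as in Msx1. Msx1 itself was at 1.90 and 1.02 CPM in Msx1-negative and 40.9 and 46.8 CPM in Msx1-positive cells at day 8, and at 0.82 and 0.75 against 73.7 and 81.6 CPM at day 16.

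BMPs are secreted dimers of the TGF-beta superfamily. They bind type I and type II receptor kinases, which phosphorylate SMAD1, SMAD5 and SMAD9, and these enter the nucleus with SMAD4 to switch on genes such as Id1 and Msx2. Noggin, gremlin and chordin bind the ligands outside the cell and keep them from the receptors, while BMPER binds BMPs and has been described both as an inhibitor and as a helper of signalling. In the embryo, Bmp4 from the extraembryonic ectoderm is needed for mesoderm, and Bmp2, Bmp4 and Bmp7 act in the branchial arches that form the face.

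Promoter windows are shown for 3 genes whose highest levels were in the same group, day-16 Msx1-positive cells: Grem1, Bmp4 and Bmp5. Each printed stretch holds the bases that precede the transcript start, with any annotated exon base left out. They are printed 5′ to 3′ on the gene's strand, from RefSeq on GRCm38.p6, with CpG dinucleotides, the sites of DNA methylation, in capitals. The intervals are chr2:113758649-113758898 (minus strand) for Grem1, chr14:46390670-46390919 (minus strand) for Bmp4 and chr9:75775115-75775363 (plus strand) for Bmp5.
Grem1: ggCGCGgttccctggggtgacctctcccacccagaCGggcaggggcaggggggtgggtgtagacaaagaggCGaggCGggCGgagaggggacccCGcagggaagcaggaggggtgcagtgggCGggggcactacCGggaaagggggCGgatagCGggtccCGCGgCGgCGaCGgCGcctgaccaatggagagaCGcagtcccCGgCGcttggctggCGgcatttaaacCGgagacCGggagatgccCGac
Bmp4: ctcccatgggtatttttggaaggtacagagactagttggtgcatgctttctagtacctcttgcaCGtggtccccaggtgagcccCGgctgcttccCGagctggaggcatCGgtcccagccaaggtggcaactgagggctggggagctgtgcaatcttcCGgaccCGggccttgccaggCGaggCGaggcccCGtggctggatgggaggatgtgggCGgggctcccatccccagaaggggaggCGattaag
Bmp5: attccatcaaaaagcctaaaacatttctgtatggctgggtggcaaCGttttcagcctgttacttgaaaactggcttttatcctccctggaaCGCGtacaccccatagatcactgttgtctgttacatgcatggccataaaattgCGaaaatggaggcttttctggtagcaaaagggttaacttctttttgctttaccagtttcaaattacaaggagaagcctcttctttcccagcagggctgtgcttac

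Base composition was counted over the full 250 bases before the RefSeq start, and it differed between the printed genes. Grem1 had 24 CpGs and 72% G and C in 250 bases, Bmp4 11 CpGs and 63.2%, and Bmp5 4 CpGs and 42.8%, against a median of 52.4% G and C over all 32851 windows of the table. Of the 9 genes, 6 had a window: Bmp4, Bmp5, Bmp6, Bmper, Grem1 and Chrd. Chrd had 28 CpGs and 78% G and C, closer to Grem1. Its highest mean was also in day-16 Msx1-positive cells (8.20 CPM), overlapping day-8 Msx1-positive cells (8.17 CPM). Bmper had 24 CpGs. The window of Bmp6 begins inside an annotated exon of Bmp6, so no stretch before its exons was left and its 22 CpGs include exon bases. A pair of homeodomain core motifs was searched on both strands of the 250 bases before the start. TAATTA occurred in 4.84% of all windows and TAATTG in 7.17%, and neither was found in a member's window. GGCGCC, a GC-rich sequence that BMP SMADs can bind, occurred in 9.59% of all windows and in those of Grem1 and Chrd. TATAAA was present in 12.4% of all windows and in no member's. No motif overlapped another in a member's window, and a match is a description of the letters only.

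The genes lie on several chromosomes in GENCODE vM21 (GRCm38), all as protein-coding genes. Bmp2 lies at chr2:133552159-133562885, Bmp4 at chr14:46383520-46390669, Bmp5 at chr9:75775364-75900310, Bmp6 at chr13:38345107-38500302 and Bmp7 at chr2:172868012-172940321. Nog lies at chr11:89300638-89302332, Grem1 at chr2:113746164-113758646, Chrd at chr16:20733127-20742384 and Bmper at chr9:23223076-23485200. Values are counts by gene symbol, and how reads were assigned to exons is not given. The library kit does not mark strand, and 4 members share exon bases with a gene on the other strand: Bmp4 with Gm15217, Bmp5 with Gm26903, Bmp6 with Txndc5 and Chrd with Thpo. Reads in the shared bases cannot be assigned by strand, and whether they were counted or discarded is not given. Gm15217 had at most 17 counts and Gm26903 at most 14 in any library, whereas Txndc5 and Thpo were expressed and are given beside Bmp6 and Chrd.

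**Figure D1:**
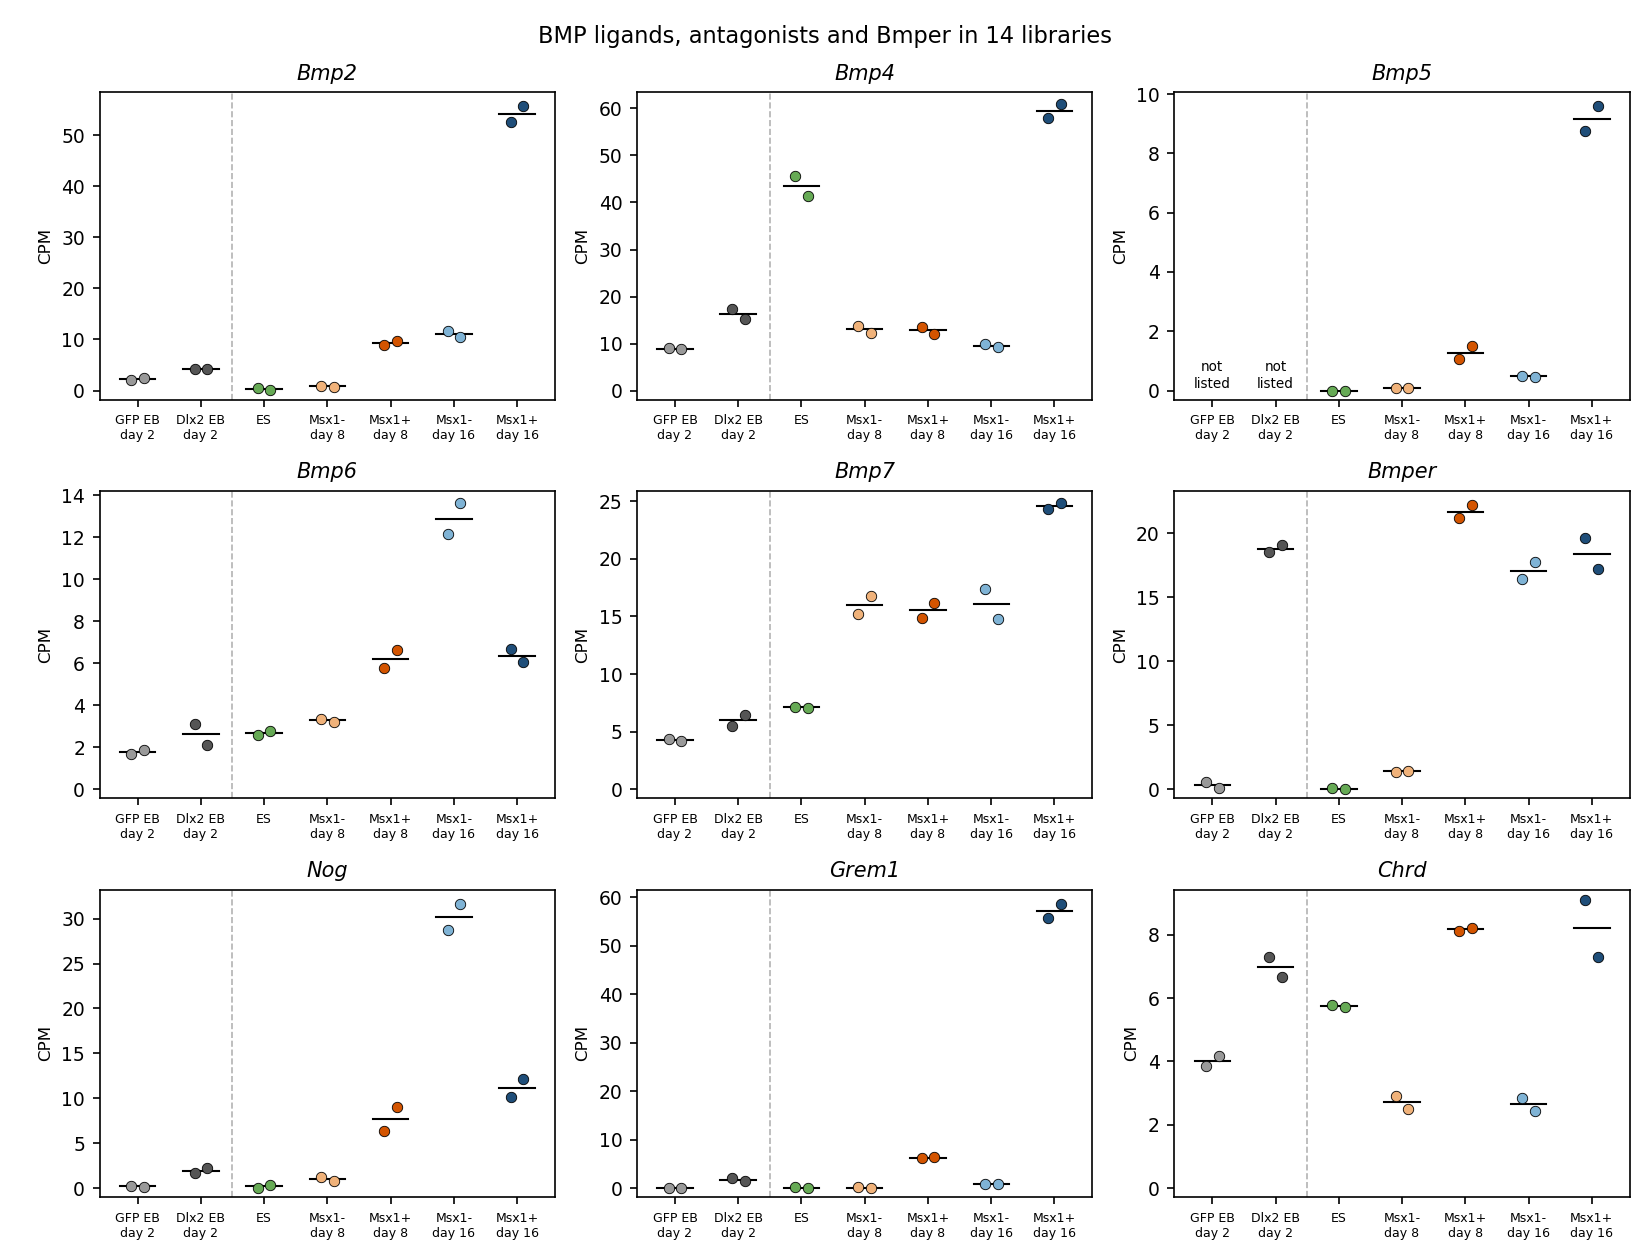
CPM (vertical axes, linear, 1 panel a gene) of the 9 genes in each library (points) by group (horizontal axes), with the mean of 2 libraries as a bar; the dashed line separates the 2 tables, which were scaled separately. Bmp2, Bmp4, Bmp5, Bmp7 and Grem1 have their highest points in day-16 Msx1-positive cells, and Nog and Bmp6 in day-16 Msx1-negative cells. Chrd has its highest point in day-16 Msx1-positive cells too, where its points overlap those of day-8 Msx1-positive cells. Bmper is near 20 CPM in 4 of the 7 groups.

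The first comparison set EBs of the induced Dlx2 line against EBs of the induced GFP line at day 2. Uninduced samples of these lines were not analysed, so effects of Dlx2 and of the line cannot be told apart. Rises and falls at day 2 are differences between the lines. Of the 8 listed members, 7 rose and none fell. Bmper had the largest fitted rise, with Grem1 ahead of it when GFP replicate 1 was left out. Nog and Grem1, which were close to undetected in GFP EBs, also rose by several log2 units, while Bmp2, Bmp4, Bmp7 and Chrd rose by less than 1. This comparison called 67.2% of 18650 genes at an adjusted p below 0.05 (edgeR quasi-likelihood test, Benjamini-Hochberg, used for every adjusted p here), 34.1% as higher and 33% as lower. The median log2 change was 0.89 over the members and 0.02 over all genes tested. In these bulk samples, fewer cells of a type and less RNA per cell cannot be told apart.

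Among the ligands, Bmp4 stood at 8.97 and 8.85 CPM in GFP EBs and at 17.3 and 15.3 CPM in Dlx2 EBs. The groups did not overlap, and the log2 difference was 0.87 ± 0.11 (SE), with an adjusted p of 6.26e-07. Bmp2, a ligand of heart, bone and neural crest development, was at 1.99 and 2.55 CPM with GFP and 4.26 and 4.25 CPM with Dlx2, a log2 difference of 0.91 ± 0.21 and an adjusted p of 5.92e-04. For Bmp7, which is needed in kidney and eye, the values were 4.34 and 4.16 CPM with GFP and 5.53 and 6.45 CPM with Dlx2. Its log2 difference of 0.49 ± 0.17 passed with an adjusted p of 0.0131, and did not pass with DESeq2 (0.49, adjusted p 0.108) or without Dlx2 replicate 2 (0.38, adjusted p 0.16). Bmp6 was at 1.70 and 1.86 CPM with GFP and 3.13 and 2.11 CPM with Dlx2, a log2 difference of 0.57 ± 0.26 with an adjusted p of 0.0578. It missed the threshold here and passed it without Dlx2 replicate 2 (0.82, adjusted p 0.0359) and when scaled by library size alone (0.74, adjusted p 0.0131).

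Bmper had 15 and 2 counts in the GFP libraries, 0.61 and 0.08 CPM, and 819 and 659 counts in the Dlx2 libraries, 18.6 and 19.1 CPM. Both Dlx2 libraries were far above both GFP libraries. The log2 difference was 5.76 ± 0.26 with an adjusted p of 9.12e-15, and it was 7.78 without GFP replicate 1 and 4.93 without GFP replicate 2. Grem1 had 2 and 0 counts with GFP against 89 and 53 with Dlx2. That is a ratio of 44.6 with a 95% exact interval of 12.1 to 372, which covers counting error only. The fitted log2 change of Grem1 passed with an adjusted p of 1.76e-07, and its size rests on the 2 counts of GFP replicate 1 (8.95 without that library, 4.39 without GFP replicate 2). Nog rose from 0.28 and 0.16 CPM with GFP to 1.66 and 2.20 CPM with Dlx2, by 3.08 ± 0.44 on the log2 scale with an adjusted p of 1.77e-06. Chrd, the largest antagonist transcript by level in GFP EBs, went from 3.86 and 4.16 CPM to 7.30 and 6.65 CPM, a log2 rise of 0.80 ± 0.16 with an adjusted p of 1.50e-04. Thpo, on the strand opposite Chrd, moved the other way at day 2 (log2 change -2.14, adjusted p 4.51e-08), and Txndc5, opposite Bmp6, was slightly higher with Dlx2 (0.17, adjusted p 0.00311).

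Cell type markers also differed between these EBs, where 34.1% of all genes were higher and 33% lower with Dlx2. The summed level of 11 mesenchyme markers was 14.2 to 15.1 CPM in GFP and 1522 to 1540 CPM in Dlx2 libraries, and that of 9 pluripotency markers was 5714 to 5805 CPM and 1157 to 1196 CPM. Of the markers tested, 9 of 9 for mesenchyme were higher and 9 of 9 for pluripotency lower in Dlx2 EBs. Sums for definitive endoderm were 9.09 to 10.03 CPM in GFP and 31.2 to 32.9 CPM in Dlx2 libraries (4 of 6 tested higher, 1 lower), and for cardiac muscle 10.7 to 11.5 and 25.1 to 26.7 CPM (5 of 7 higher, 2 lower). Endothelial markers summed to 119 to 122 and 29.9 to 31.2 CPM (1 of 7 higher, 5 lower), and neural ones to 129 to 132 and 169 to 173 CPM (6 of 8 higher, 2 lower). For surface ectoderm, 0 of 7 tested markers were higher and 5 lower, and for trophectoderm 2 of 6 were higher and 2 lower. Node and notochord had 1 of 4 higher and 1 lower, visceral endoderm 2 of 4 higher and 1 lower, and blood 1 of 2 higher. The part of all these markers in the BMP gene changes was not tested.

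The sorted fractions were then compared to see how the genes differed between Msx1-positive and Msx1-negative cells. At day 8, 7 of the 9 members were higher in Msx1-positive cells, none was lower, and Bmp4 and Bmp7 were not called. At day 16, 6 were higher, Bmp6 and Nog were lower, and Bmper was not called. The day-8 comparison called 54.7% of 22294 genes, 30.4% as higher and 24.3% as lower, and the day-16 comparison 62.1%, 31.1% as higher and 31% as lower. Members had a median log2 difference of 2.96 at day 8 and 1.63 at day 16, against 0.06 and -0.02 over all genes tested. Msx1 is itself a BMP target, and the fractions were sorted on it.

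**Figure D2:**
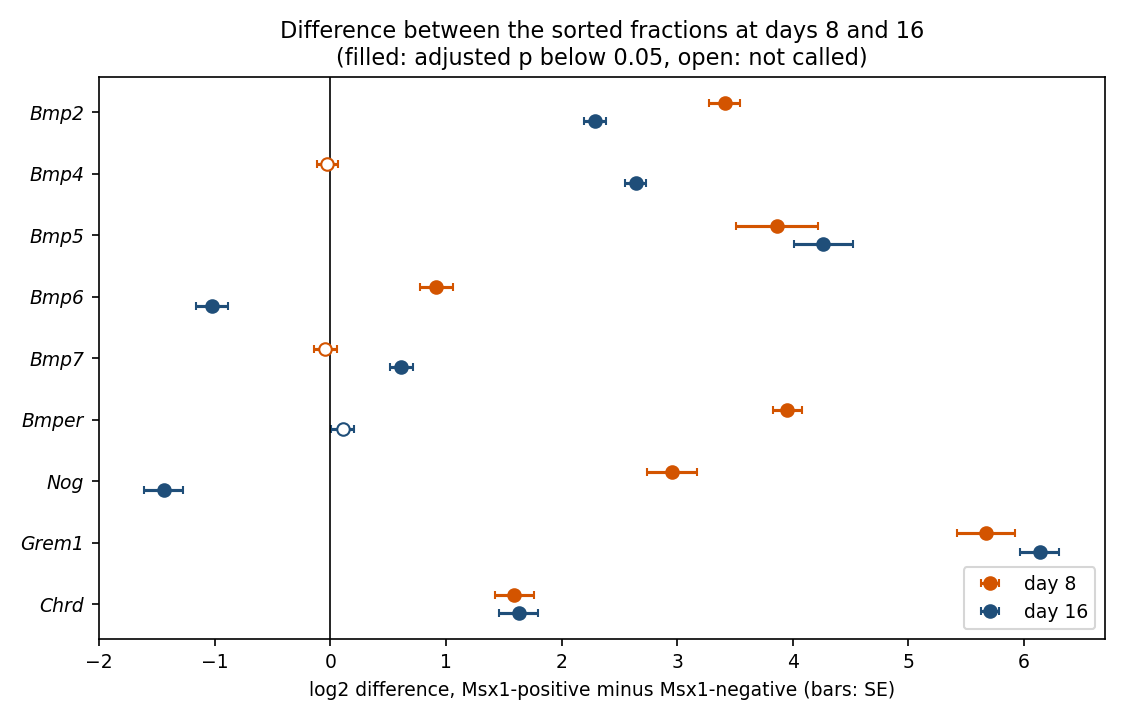
Log2 difference between Msx1-positive and Msx1-negative cells (horizontal axis, bars are SE) for each of the 9 genes at day 8 (orange) and day 16 (blue), filled where the adjusted p was below 0.05. Grem1, Bmp5 and Chrd lie at like values on both days, Bmper falls from 3.95 to 0.11, Bmp4 goes from -0.03 to 2.64, and Bmp6 and Nog change sign.

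Bmp2 was higher in Msx1-positive cells on both days. Its day-8 values were 0.96 and 0.78 CPM in Msx1-negative and 8.94 and 9.62 CPM in Msx1-positive cells, and its day-16 values were 11.7 and 10.4 against 52.5 and 55.7 CPM. Positive libraries were above negative ones on each day, by 3.41 ± 0.14 (adjusted p 2.81e-11) and 2.29 ± 0.10 (adjusted p 4.22e-11) on the log2 scale. Day-16 Msx1-negative cells thus held about as much Bmp2 as day-8 Msx1-positive cells, though the libraries of these groups did not overlap.

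Bmp4 showed no called difference at day 8, with 13.7 and 12.3 CPM in Msx1-negative and 13.5 and 12.1 CPM in Msx1-positive cells (log2 difference -0.03 ± 0.09, adjusted p 0.83). The 2 fractions overlapped. By day 16 it was at 9.83 and 9.19 CPM in Msx1-negative and 58.1 and 60.9 CPM in Msx1-positive cells, 2.64 ± 0.09 higher with an adjusted p of 4.92e-12. Bmp5, a ligand of skeletal and ear development, was scarce at day 8, with 6 and 4 counts in Msx1-negative and 75 and 171 counts in Msx1-positive libraries. It reached 8.75 and 9.59 CPM in day-16 Msx1-positive cells and stayed at 0.49 and 0.46 CPM in the negative ones. Its log2 differences were 3.86 ± 0.36 (adjusted p 2.83e-07) and 4.26 ± 0.26 (adjusted p 1.89e-09).

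Bmp7 differed little between fractions. Its level was 15.2 and 16.8 CPM in Msx1-negative and 14.9 and 16.2 CPM in Msx1-positive cells at day 8, which overlap (-0.04 ± 0.10, adjusted p 0.755). At day 16 it was at 17.4 and 14.7 against 24.3 and 24.9 CPM, 0.61 ± 0.10 higher in positive cells with an adjusted p of 8.60e-05. Bmp6, a ligand that also controls hepcidin in iron balance, took the opposite course. It was higher in positive cells at day 8, at 5.79 and 6.61 against 3.35 and 3.22 CPM (0.92 ± 0.14, adjusted p 6.55e-05). At day 16 it was lower in them, at 6.66 and 6.05 against 12.2 and 13.6 CPM (-1.02 ± 0.14, adjusted p 1.15e-05). Txndc5, which overlaps Bmp6 on the other strand, was at group means of 162 to 415 CPM in the sorted cells, far above Bmp6. It was higher in positive cells on both days, as Bmp6 was at day 8 (log2 0.32, adjusted p 2.23e-04) and as Bmp6 was not at day 16 (0.67, adjusted p 7.55e-08). The part of Txndc5 reads in the Bmp6 counts was not tested.

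Of the antagonists, Grem1 had the largest difference of all members on both days. It was at 0.19 and 0.04 CPM in Msx1-negative and 6.13 and 6.37 CPM in Msx1-positive cells at day 8, and at 0.82 and 0.80 against 55.7 and 58.6 CPM at day 16. The log2 differences were 5.67 ± 0.25 (adjusted p 8.08e-11) and 6.14 ± 0.17 (adjusted p 3.07e-13). The day-8 size depends on the 12 and 2 counts of its negative libraries, being 7.30 without day-8 Msx1-negative replicate 1 and 4.96 without replicate 2. In the limb bud, gremlin from the mesenchyme opposes BMPs.

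Chrd, which is cleaved by tolloid proteases, was at 2.90 and 2.51 CPM in Msx1-negative and 8.11 and 8.23 CPM in Msx1-positive cells at day 8. It barely moved by day 16, at 2.85 and 2.44 against 9.09 and 7.31 CPM. The differences were 1.59 ± 0.17 (adjusted p 1.34e-06) and 1.63 ± 0.17 (adjusted p 8.46e-07), and Thpo was not called between the fractions on either day.

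Nog reversed between the days. At day 8 it was at 1.22 and 0.76 CPM in Msx1-negative and 6.39 and 9.03 CPM in Msx1-positive cells, 2.96 ± 0.22 higher with an adjusted p of 8.60e-08. At day 16 it was at 28.8 and 31.6 CPM in Msx1-negative and 10.2 and 12.1 CPM in Msx1-positive cells, a log2 difference of -1.44 ± 0.17 with an adjusted p of 5.81e-06. Bmper lost its difference: it was at 1.36 and 1.44 against 21.2 and 22.2 CPM at day 8 (3.95 ± 0.13, adjusted p 2.62e-12). At day 16 it was at 16.4 and 17.7 CPM in negative and 19.6 and 17.2 CPM in positive cells, which overlap (0.11 ± 0.10, adjusted p 0.38).

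A term for the change of the difference, day 16 minus day 8, tested these contrasts directly. It called 28.6% of all genes, 10.3% in the positive and 18.3% in the negative direction, and 6 of the 9 members. The difference grew for Bmp4 (2.67 ± 0.13, adjusted p 2.41e-09) and Bmp7 (0.65 ± 0.14, adjusted p 0.00292). It dropped for Bmp2 (-1.12 ± 0.17, adjusted p 2.09e-04), Bmp6 (-1.94 ± 0.20, adjusted p 4.07e-06), Bmper (-3.85 ± 0.16, adjusted p 6.27e-10) and Nog (-4.40 ± 0.28, adjusted p 1.13e-07). No change was called for Bmp5 (0.40, adjusted p 0.67), Grem1 (0.46, adjusted p 0.517) or Chrd (0.04, adjusted p 0.924). For Grem1 the sign depended on 1 library, with -1.18 without day-8 Msx1-negative replicate 1 (adjusted p 0.336) and 1.16 without replicate 2 (adjusted p 0.0755).

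The days were then compared within each fraction. In Msx1-positive cells 6 members rose from day 8 to day 16 and none fell, where 45.9% of genes were called, 21.1% as higher and 24.8% as lower. The rises were 3.19 for Grem1, 2.84 for Bmp5, 2.54 for Bmp2, 2.21 for Bmp4, 0.66 for Bmp7 and 0.52 for Nog on the log2 scale. The Nog rise (adjusted p 0.0231) was lost without day-16 Msx1-positive replicate 2 (0.38, adjusted p 0.193) and without day-8 Msx1-positive replicate 1 (0.30, adjusted p 0.166). Bmper was at -0.24 with an adjusted p of 0.0619, and was called lower without day-16 Msx1-positive replicate 1 (-0.34, adjusted p 0.0422). Bmp6 and Chrd, at 0.03 and 0.00, were not called.

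In Msx1-negative cells, where 37.6% of genes were called, 19.7% as higher and 17.8% as lower, 6 members rose and Bmp4 fell. Nog had the largest rise, 4.92 on the log2 scale, followed by Bmp2 at 3.66, Bmper at 3.61, Grem1 at 2.73, Bmp5 at 2.44 and Bmp6 at 1.97. Txndc5 rose as well, by 0.68 in negative cells (adjusted p 2.81e-07) and by 1.04 in positive cells (adjusted p 1.56e-09), where Bmp6 was not called. Grem1's value was 4.37 without day-8 Msx1-negative replicate 1 and 2.03 without replicate 2. Bmp4 fell by 0.45 with an adjusted p of 0.00153, and Bmp7 (0.00) and Chrd (-0.04) were not called. So the loss of the Bmper difference and the reversal of Nog went with rises in the negative cells, from 1.36 and 1.44 to 16.4 and 17.7 CPM for Bmper and from 1.22 and 0.76 to 28.8 and 31.6 CPM for Nog.

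Markers of other cell types differed between the same libraries. The 8 visceral endoderm markers summed to 89.2 to 91.5 CPM in day-8 and 317 to 339 CPM in day-16 Msx1-negative cells, and to 25.8 to 30.3 and 83.6 to 93.0 CPM in Msx1-positive cells. All 8 rose from day 8 to day 16 in negative cells (median log2 change 2.39), and in positive cells 6 rose and 2 fell (2.13). Of 11 mesenchyme markers, 10 rose in negative cells (median 3.82) and 11 in positive cells (2.06). Among all genes, 19.7% rose in negative and 21.1% in positive cells. At day 16, 5 of the visceral endoderm markers were lower and 1 was higher in positive cells. For 7 definitive endoderm markers the day-16 sums were 345 to 356 CPM in negative and 115 to 119 CPM in positive cells, with 4 of 7 lower and 1 higher in positive cells. The 6 node and notochord markers summed to 21.8 to 22.2 and 12.5 to 13.5 CPM, a gap that Foxa2 carried (15.8 against 5.46 CPM). Of the 5 tested, Foxa2 was lower in positive cells, T and Shh were higher, and 2 were not called. Trophectoderm markers summed to 301 to 304 CPM in day-16 negative and 110 to 115 CPM in positive cells (4 of 7 lower, 2 higher). Surface ectoderm markers summed to 1641 to 1674 and 870 to 904 CPM (6 of 8 lower, none higher). Endothelial markers summed to 233 to 255 and 62.0 to 70.7 CPM (4 of 8 lower, 3 higher). In ES libraries these lists already summed to 69.9 to 77.3, 879 to 903 and 126 to 132 CPM. The cardiac sum was higher in positive cells at day 16, at 23.7 to 25.2 against 10.9 to 13.1 CPM (4 of 7 tested higher, 2 lower). So was the neural sum, at 240 to 258 against 123 to 131 CPM (4 of 8 higher, 3 lower). The blood sum was 26.8 to 27.1 against 15.1 to 18.4 CPM (2 of 6 higher, none lower). Of all genes, 31.1% were higher and 31% lower in positive cells at day 16. Mesenchyme markers summed to 716 to 794 CPM in day-16 negative cells and 16999 to 18342 CPM in positive ones, and to 63.8 to 65.3 and 2171 to 2426 CPM at day 8. Pluripotency markers summed to 3843 to 4030 CPM in day-16 negative and 237 to 251 CPM in positive cells. In day-16 cells, Noto, a node gene, was the only one of these markers at 0 in both libraries of a fraction, the positive one. Their part in the Nog, Bmp6 and Bmper values was not tested.

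Levels across genes were compared per length, as CPM per kilobase of exon (RPKM). In day-16 Msx1-positive cells the ligands summed to 50.5 and 52.9 RPKM, against 15.2 and 14.3 RPKM in day-16 negative cells, 13.99 and 14.19 in day-8 positive and 11.05 and 10.71 in day-8 negative cells. Bmp4 made up 51.1% and 51.2% of the ligand sum in day-16 positive cells and Bmp2 29.2% and 29.6%. In day-16 negative cells no ligand dominated: Bmp4 had 28.7% and 28.6%, Bmp7 28.4% and 25.7%, Bmp2 21.6% and 20.5%, and Bmp6 20.5% and 24.4%. In ES libraries Bmp4 alone held 88.7% and 88.0%.

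The leading gene among the antagonists and Bmper changed from group to group. Chrd led in ES libraries, with 89.3% and 80.3% of the sum of Nog, Grem1, Chrd and Bmper, and in GFP EBs, with 66.3% and 85.6%. In Dlx2 EBs Bmper took 59.4% and 59.1%. In day-8 negative cells Nog led with 47.5% and 38.7%, ahead of Chrd with 30.7% and 34.7%. Day-8 positive cells were split between Bmper (40.1% and 35.99%) and Nog (34.5% and 41.7%). At day 16, Nog held 80.8% and 81.4% in negative cells and Grem1 53.9% and 54.3% in positive cells. This sum counts Bmper, which may not act as an antagonist, and it was not computed without Bmper. In GFP EBs Bmper made up 13.6% and 2.15% of it, against the 59.4% and 59.1% in Dlx2 EBs. The ratio of this sum to the ligand sum was 0.05 and 0.05 in ES libraries, 0.15 and 0.13 in GFP EBs and 0.58 and 0.66 in Dlx2 EBs. It was 0.14 and 0.11 in day-8 negative, 0.78 and 0.90 in day-8 positive, 1.38 and 1.60 in day-16 negative and 0.49 and 0.49 in day-16 positive cells. These are ratios of transcript levels and carry no test, and the leading genes named here were the same when the longest transcript replaced the exon sum as the length, apart from both day-8 groups. There Bmper led in both positive libraries (44.1% and 40.2%), and Chrd led in negative replicate 2 (40.6%, against 31.8% for Nog).

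**Figure D3:**
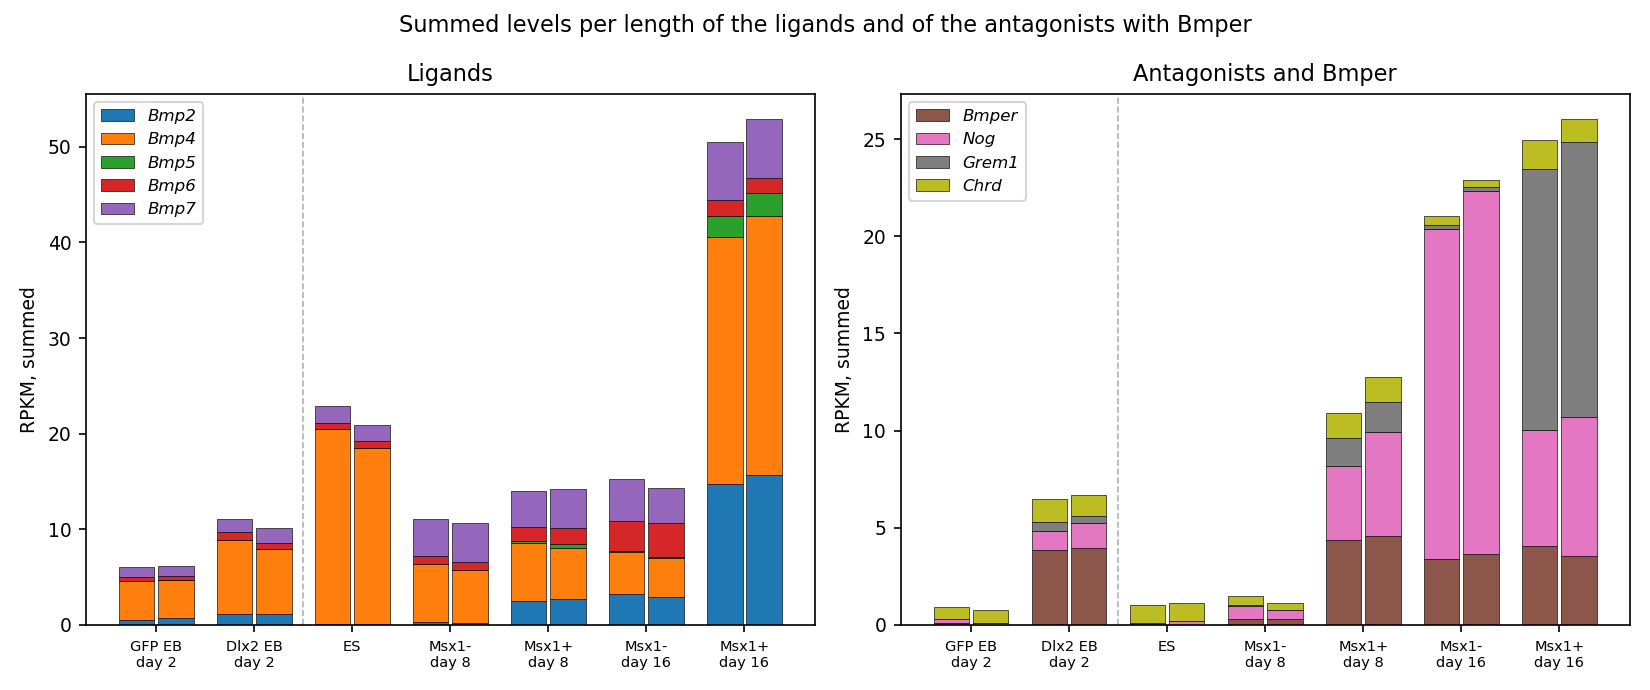
Summed RPKM (vertical axes, linear from 0) of the 5 ligands (left) and of the 3 antagonists with Bmper (right), stacked by gene, with 1 bar for each of the 2 libraries of a group; the dashed line separates the 2 tables, and Bmp5 is not listed at day 2. The ligand bars of day-16 Msx1-positive cells reach 50.5 and 52.9 RPKM, and the antagonist bars of day-16 cells are mostly Nog in the negative and mostly Grem1 in the positive fraction.

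The sorted cells were also set against the libraries labelled ES, which share a table with them and are the same 2 libraries in each of 4 comparisons. These libraries carried Dlx2 reads, as given above. Against them, Dlx2 was lower in day-16 negative cells (log2 change -0.67, adjusted p 1.49e-06). It was higher in day-8 negative (0.30), day-16 positive (0.52) and day-8 positive cells (2.45). The ES libraries had a pluripotency marker sum of 7212 to 7428 CPM. Bmp4 was the main ligand there, at 45.7 and 41.4 CPM. It was lower than in ES libraries in day-8 positive (-1.77), day-8 negative (-1.74) and day-16 negative cells (-2.19), and higher in day-16 positive cells (0.45 ± 0.08, adjusted p 1.29e-04). Bmp7, at 7.18 and 7.08 CPM in ES libraries, was higher in all 4 groups, by 1.13 to 1.79 on the log2 scale. Bmp6, at 2.60 and 2.78 CPM, was higher in 3 groups and not called in day-8 negative cells (0.29, adjusted p 0.199). Members called higher numbered 8 of 9 in day-8 positive, 5 in day-8 negative, 9 in day-16 positive and 7 in day-16 negative cells. Of 22504 genes, 61.5% were called in day-8 positive cells (34.6% higher, 26.9% lower), 33.6% in day-8 negative (19% higher, 14.5% lower), 71% in day-16 positive (37.3% higher, 33.7% lower) and 53% in day-16 negative cells (28.5% higher, 24.5% lower).

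Several members were almost absent from the ES libraries. Bmp5 had 0 counts in both, and with 3 counts per group taken as the floor it was at least 45.3-fold higher in day-8 positive, at least 2.96-fold in day-8 negative, at least 315-fold in day-16 positive and at least 16.3-fold in day-16 negative cells. The exact 95% interval, which also counts error in the sorted libraries, had lower limits of 36.5, 1.99, 255 and 12.8. Bmper had 6 and 0 counts, Nog 4 and 17, Grem1 9 and 6, and Bmp2 24 and 9. Each of Bmp2, Bmper and Nog was called higher in all 4 sorted groups, and the sizes of these changes depend on those few counts: for Bmper in day-16 positive cells the log2 change was 8.26, with 13.26 without ES replicate 1 and 7.29 without ES replicate 2. For Nog in day-16 negative cells it was 7.19, with 6.49 without ES replicate 1 and 8.58 without ES replicate 2, and for Bmp2 in day-16 positive cells 7.39, with 8.24 without ES replicate 1. Grem1 was not called in day-8 negative cells (-0.27, adjusted p 0.75). Chrd was at 5.79 and 5.72 CPM in ES libraries, above both negative fractions (-1.09 at day 8 and -1.12 at day 16) and below both positive ones (0.51 at both days). Thpo, on its other strand, was at a mean of 5.64 CPM in ES libraries and lower in all 4 sorted groups: with Chrd in day-8 negative (-1.47, adjusted p 1.20e-04) and day-16 negative cells (-2.003, adjusted p 2.11e-06), and against it in day-8 positive (-2.01, adjusted p 9.88e-07) and day-16 positive cells (-2.28, adjusted p 2.22e-07). Its part in the Chrd counts was not tested. Txndc5, opposite Bmp6, was higher than in ES libraries in all 4 groups, by 0.25 to 1.61. The Chrd calls in positive cells were lost at day 8 without day-8 Msx1-positive replicate 2 (adjusted p 0.0555) or ES replicate 2 (adjusted p 0.0501), and at day 16 without day-16 Msx1-positive replicate 1 (0.35, adjusted p 0.139).

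Ordered by mean CPM over the ES and sorted groups, the members did not all follow the same sequence. Bmp2 ran from ES through day-8 negative, day-8 positive and day-16 negative to day-16 positive cells, and Bmp5 from ES through day-8 negative, day-16 negative and day-8 positive to day-16 positive cells, with no overlap between neighbouring groups in either. Nog ran from ES through day-8 negative, day-8 positive and day-16 positive to day-16 negative cells, also without overlap. Bmp6 had the same order as Nog, with day-8 and day-16 positive cells overlapping. For Chrd the day-8 and day-16 libraries overlapped within each fraction, and for Grem1 ES and day-8 negative libraries overlapped. Day-8 positive cells had the highest Bmper values, 21.2 and 22.2 CPM, just above the overlapping day-16 fractions. Each group held only 2 libraries, and the share of all genes without such overlap was not counted.

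The genes around these members were taken from lists of the BMP pathway. Their counts stand against all genes tested, of which 67.2% were called at day 2 (34.1% higher, 33% lower), 54.7% between fractions at day 8 (30.4% higher, 24.3% lower) and 62.1% at day 16 (31.1% higher, 31% lower), with median log2 changes of 0.02, 0.06 and -0.02. Among 16 other antagonists and modulators, 11 were tested at day 2, of which 8 were higher and 1 lower with Dlx2. Of all 16 tested in the sorted cells, 13 were higher and none lower in Msx1-positive cells at day 8, and 12 were higher and 3 lower at day 16. Their median log2 changes were 1.08, 2.14 and 1.96 in the 3 comparisons. Crim1, a transmembrane protein that binds BMPs, rose most with Dlx2 at day 2, from 11.4 to 150 CPM (log2 3.72 ± 0.07). Sostdc1, an antagonist of BMP and Wnt signals in teeth, was at 33.5 CPM in day-16 positive and 0.56 CPM in negative cells (5.91 ± 0.23). Fst, the activin and BMP binder follistatin, reversed between the days as Nog did. It was at 28.9 CPM in positive and 6.62 CPM in negative cells at day 8 (2.12 ± 0.11), and at 37.5 and 146 CPM at day 16 (-1.96 ± 0.10). Its change of the difference between days was -4.08 ± 0.15, with an adjusted p of 3.23e-10.

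A list of other ligands of the family held BMPs, GDFs, Inhba and Nodal, and 6 of 9 tested were higher and 3 lower with Dlx2 at day 2, 8 of 13 were higher and 2 lower in positive cells at day 8, and 7 were higher and 4 lower at day 16, with medians of 0.95, 1.01 and 1.62. Inhba, the activin A subunit, was at 222 CPM in day-16 positive and 6.04 CPM in negative cells (5.20 ± 0.09). Bmp3 was at 18.9 and 1.20 CPM there (3.97 ± 0.19). Gdf3 and Nodal, ligands of pluripotent cells, were lower in positive cells at day 16, with log2 differences of -4.40 ± 0.10 and -2.86 ± 0.08. Both were also lower with Dlx2 at day 2, at -1.76 and -1.68.

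Of 6 proteases that process ligands or cleave chordin, 3 were higher and 2 lower at day 2 (median 0.15), a split close to that of all genes. In positive cells 5 were higher and 1 lower on both later days (medians 2.66 and 2.42). Bmp1, the tolloid protease that cuts chordin, fell with Dlx2 at day 2 from 62.4 to 29.0 CPM (-1.11 ± 0.07). In day-16 positive cells it was at 340 CPM against 44.6 CPM in negative cells (2.93 ± 0.06). Pcsk5, a convertase of proproteins, was at 53.2 against 5.52 CPM there (3.27 ± 0.09), and Pcsk6 was lower (-1.11 ± 0.07).

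Receptor and co-receptor genes made up another list. Of 11, 6 were higher and 2 lower at day 2, 8 higher and 1 lower in positive cells at day 8, and 9 higher and 2 lower at day 16, with medians of 0.37, 1.05 and 0.92. The 8 called at day 2 are a share near the 67.2% of all genes. The type I receptor gene Acvr1 was at 76.9 CPM in day-16 positive and 26.6 CPM in negative cells (1.53 ± 0.07), and Acvrl1 at 26.9 and 6.43 CPM (2.07 ± 0.11). Acvr2b, a type II receptor gene, was lower in positive cells (-0.80 ± 0.14).

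Of 8 SMADs and regulators, 6 were higher and 1 lower at day 2 and at day 8, and 7 were higher and 1 lower at day 16, with medians of 0.39, 0.57 and 0.85. The inhibitory Smad6 was at 2.88 CPM with GFP and 18.5 CPM with Dlx2 at day 2 (2.68 ± 0.14), and at 10.3 and 63.8 CPM in negative and positive cells at day 16 (2.63 ± 0.08). Smad7, which also blocks receptors, was the 1 lower gene in all 3 comparisons (-1.08, -0.35 and -0.54).

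BMP target genes, a list that includes the sorted gene Msx1, had 8 higher and 5 lower of 16 at day 2, against 34.1% and 33% of all genes. In positive cells 13 were higher and 2 lower at day 8, and 12 higher and 3 lower at day 16. The medians were 0.39, 1.84 and 1.56. Msx2 was at 5.85 CPM with GFP and 122 CPM with Dlx2 (4.38 ± 0.08), and Id3, an early BMP target, was lower with Dlx2, at 55.2 against 92.7 CPM (-0.75 ± 0.06). At day 16 Dlx5 (5.45 ± 0.18) and Runx2 (5.01 ± 0.31), regulators of bone and face, were among the highest in positive cells, while Tfap2c (-1.80 ± 0.06) and Tbx3 (-1.38 ± 0.07) were lower. Between the days, the change of the difference between fractions was positive for 3 and negative for 9 of the 16, with 4 not called (median -0.60). Among all genes it was positive for 10.3% and negative for 18.3%. The difference grew for Id3 (0.54 ± 0.10, adjusted p 0.0013) and dropped for Msx2 (-1.43 ± 0.14, adjusted p 2.43e-06).

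**Figure D4:**
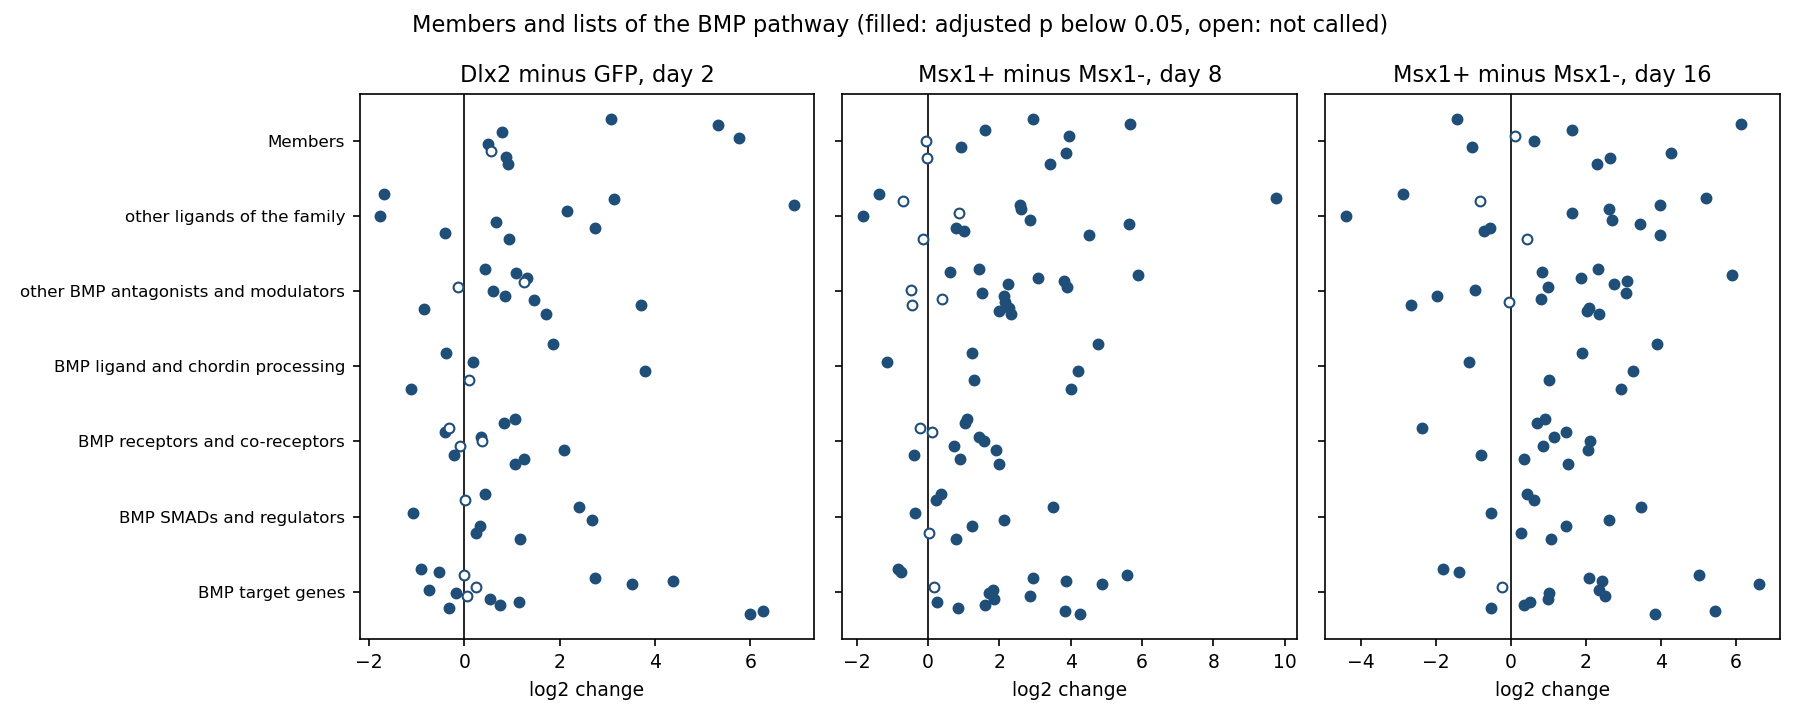
Log2 change (horizontal axes) of each tested gene (points) in the member list and 6 lists of the BMP pathway (rows), for Dlx2 minus GFP at day 2 and for Msx1-positive minus Msx1-negative cells at days 8 and 16; filled points had an adjusted p below 0.05. Of the 16 other antagonists and modulators, 13 are higher in Msx1-positive cells at day 8 and 12 at day 16, and the targets hold genes on both sides of 0 in every panel.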

How the data were processed

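RNA sequencing was done on 14 libraries in 7 groups of 2, of 18 samples in 9 groups in the labels, and the 4 uninduced samples were not analysed here. Values are raw counts by gene symbol in 2 tables that the authors deposited. The day-2 columns do not name doxycycline and were taken as the induced EBs, which are the ones the design text compares. Per the labels' protocols, RNA was made into libraries with a NEBNext Ultra RNA kit, which is not stranded. Per the submitters' processing notes, fastp 0.20.0, HISAT2 2.1.0, DESeq2 1.18.1 and GRCm38 were used, but for the counting program: not given in the sources used here. Each table was fitted on its own. Fits held 4 libraries at day 2, 8 sorted libraries, or 10 with ES. Genes passing filterByExpr were scaled by TMM and tested two-sided with edgeR 4.0.16 (glmQLFit robust, glmQLFTest, R 4.3.3), with Benjamini-Hochberg adjustment over all genes and calls at an adjusted p below 0.05. SE is the size of the log2 change over the root of the F statistic. Member levels are CPM of the day-2 or the 10-library table, and CPM of pathway genes are those of the fit tested. Levels set across the 2 tables are a description. RPKM uses the exon union of GENCODE vM21. Alternatives were 2 other scalings, 2 filters, DESeq2 1.42.0, other sets of libraries in the fit, a replicate block, and leaving out each library. On simulated data with 2 libraries a group, 100 genes were changed by 1 on the log2 scale and 100 by 2. All were drawn from genes with a mean above 1 CPM. The test called 82% to 91% of the first and 97% to 100% of the second over 9 comparisons. Unchanged genes made up 11.6% of the simulated calls at day 2, and 7.80% and 8.08% between fractions at days 8 and 16. They made up 11.7% and 10.5% over time in positive and negative cells, and 4.69% to 9.90% against ES. In the data a far larger share of genes was called, and some members had few counts in a group, so these figures need not hold there. Calls just under the threshold may still be less certain than an adjusted p of 0.05 states. With 2 against 2 libraries an exact permutation test of 1 gene cannot go below p = 0.333, so only fits across all genes were used. Intervals and floors cover counting error only. The members, gene lists and comparisons were chosen with earlier results of these data known. Text names all members, and up to 3 called genes per pathway list and direction with the largest change, leaving out those whose lower group has few counts.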

Additional observations from a re-analysis of the deposited data

Results flagged for a closer look

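For 6 genes the difference between Msx1-positive and Msx1-negative cells was not the same at days 8 and 16, by the test of the change of the difference (log2, day 16 minus day 8, edgeR). Nog changed by -4.40 (adjusted p 1.13e-07) and Bmp6 by -1.94 (adjusted p 4.07e-06), and both went from higher to lower in positive cells. Bmper changed by -3.85 (adjusted p 6.27e-10), from a called to an uncalled difference. Bmp2 changed by -1.12 (adjusted p 2.09e-04) and was higher in positive cells on both days. Bmp4 changed by 2.67 (adjusted p 2.41e-09) and Bmp7 by 0.65 (adjusted p 0.00292), and both were called higher at day 16 only. All 8 fits that left out 1 sorted library kept the direction and the call of these 6 changes.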

How the results depend on the processing

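Each member's log2 change in the 10 comparisons was recomputed under the alternatives, and 1001 values kept direction and call, 27 changed sign without being called, 4 gained and 9 lost the call. No value that changed sign was called in either fit. With library size alone as the scaling, they were Bmp4 (0.13) and Bmp7 (0.11) between the fractions at day 8, Chrd in the change of the difference (-0.15), Bmp6 (-0.084) and Chrd (-0.11) over time in positive cells, and Chrd over time in negative cells (0.035). Chrd over time in positive cells was -0.011 without the filter and -0.0066 with the replicate block, and Bmp7 over time in negative cells was -0.0093 with RLE and -0.0094 with DESeq2. Library size alone also called Bmper lower over time in positive cells (-0.35, adjusted p 0.00766), which took the members lower there from 0 to 1, and it lost Nog (0.41, adjusted p 0.056). Nog was lost too in the fit with the ES libraries (0.52, adjusted p 0.071).

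Library size alone shifted the median of all genes to 0.198 at day 2, 0.217 at day 8, -0.284 in the change of the difference, -0.15 over time in positive and 0.084 in negative cells, from 0.024, 0.062, -0.097, -0.034 and 0.012 with TMM. The share of calls that were higher went from 50.8% to 63.6%, 55.6% to 66.8%, 35.9% to 15.5%, 46.0% to 34.7% and 52.5% to 62.9%.

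Leaving out 1 library gave, beside the values in the report, ranges for sign changes: between fractions at day 8 Bmp4 -0.13 to 0.053 and Bmp7 -0.14 to 0.017; change of the difference Chrd -0.12 to 0.19 and Grem1 -1.18 to 1.16; over time in positive cells Bmp6 -0.065 to 0.13, Chrd -0.16 to 0.15 and members lower 0 to 1; over time in negative cells Bmp7 -0.13 to 0.12 and Chrd -0.16 to 0.069; day-8 negative against ES Grem1 -1.92 to 0.41. Same-numbered replicates did not deviate together (correlations of deviations from -0.04 to 0.1), and the replicate block changed no call of a member. Precision is limited by 2 libraries a group and, for Grem1, Bmper and Nog, by few counts in the lower group. The cause of these changes was not tested.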

Other observations

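The genes whose log2 CPM followed each member most closely over the 10 ES and sorted libraries, among 22504 genes, are given as a description, since the libraries of a group are replicates and only 5 groups stand behind each correlation. Nog was most like Afp (Pearson r 0.993), the alpha-fetoprotein gene of visceral endoderm and liver, then Gpr146 (0.987) and Cyp26a1 (0.986), a retinoic acid hydroxylase. Bmp6 was most like Lamb1 (0.993), a laminin chain gene, Fst (0.989) and S100a1 (0.986). Bmp2 was most like Anxa3, Emc7 and Ccn1 (0.997, 0.996 and 0.996). Bmp5 was most like Kirrel, Tspan18 and Chst14 (0.999, 0.998 and 0.998), and Grem1 most like Cldn12, Bace1 and Osbpl5 (0.995, 0.995 and 0.994). For Bmper the genes were Arhgef6, Slc35g2 and Sema4c (0.993, 0.991 and 0.989), and for Bmp7 they were Gm17092, 1810026B05Rik and Srgap3 (0.992, 0.980 and 0.980). Bmp4 and Chrd had the least close partners: Dglucy, Trim2 and Hdac3 for Bmp4 (0.976, 0.973 and 0.965), and Lgr6, Ccdc28b and Trps1 for Chrd (0.984, 0.976 and 0.976).

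Among the members themselves, Bmp2 and Bmp5 (r = 0.97), Nog and Bmp6 (0.95) and Grem1 and Bmp5 (0.95) were most alike over the same 10 libraries. Over these 10 libraries Bmp4 was unlike the other ligands, with r from -0.42 with Bmp6 to 0.17 with Bmp5. They include the ES libraries, where Bmp4 was at a mean of 43.6 CPM and the other ligands had their lowest means. Bmp2, Bmp4, Bmp5 and Bmp7 all had their highest means in day-16 Msx1-positive cells. Correlations over the sorted libraries alone were not computed. These correlations describe the same libraries and carry no test.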
